A study of Mus musculus with 8 samples.

Results

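Expression of glycolysis and hypoxia response genes was followed in primary mouse lung fibroblasts given recombinant TWEAK (TNF-like weak inducer of apoptosis, a ligand of the tumour necrosis factor family). The genes are 31 symbols chosen by name: the glycolytic enzymes from glucose uptake to lactate export, the enzymes that tune them, and well-known targets of the hypoxia-inducible factors. They were chosen with earlier results of these data known, so their counts beside those of all genes are a description and not a test. The count table has 55335 rows, and the 31 symbols stood on 32 of them, because Aldoa was on 2. The second Aldoa row held at most 0.300 CPM (the gene's counts as parts of a common library total) in any library and was kept apart. All 31 genes passed the filter on low counts.

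The study measured RNA by sequencing in wild-type (WT) fibroblasts from lung tissue, grown in DMEM medium with 10% fetal bovine serum. The 4 groups were untreated cells and cells given TWEAK at 10, 30 or 100 ng/ml, all sampled at 48 hours, with 2 libraries in each group and 8 in all. All groups share the genotype, the tissue and the medium, and TWEAK is the only agent named. Whether both libraries of a group stem from different cultures or mice is not in the labels, so each p-value reflects library-to-library spread that may be purely technical. Library totals ran from 37345575 to 50896445 counts.

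Glycolysis splits glucose into pyruvate and yields ATP without oxygen. Cells short of oxygen stabilise hypoxia-inducible factors (HIFs), dimers of an oxygen-regulated alpha subunit with ARNT, which bind short DNA elements near glycolytic genes and raise their transcription. Growth signals can raise the same genes while oxygen is present, and activated lung fibroblasts are known for a high glycolytic rate that accompanies proliferation and matrix production.

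The DNA element bound by HIFs has the core ACGTG or GCGTG. The 250 bases before the first listed start of each gene were read for both cores on both strands, in RefSeq promoters on build GRCm38.p6. Further starts listed for a gene were left out of the counts given here. A window was available for 30 of the 31 genes, all but Ndrg1. ACGTG stood in the windows of 13 of the 30 genes (43.3%), against 16.6% of the 27025 genes with a window. GCGTG stood in 15 (50.0%), against 28.2%, and at least 1 of the cores in 22 (73.3%), against 38.6%. The palindrome CACGTG, which holds ACGTG on both strands, stood in 3 (10.0%), against 6.05%. The median GC content of these windows was 61.2%, against 52.0% for all genes, and its part in the difference was not tested. The 31 genes were chosen in part as known HIF targets, so these shares are a description and not a test. The comparison set is every gene with a window, and not the 17360 genes tested for expression. A match describes the letters and not a bound site. The windows of 4 genes are shown, in lower case with each ACGTG, read on either strand (CACGT on the other), in capitals. Pgk1, Slc16a3 and Egln3 had the largest log2 changes at 10 ng/ml among the 31 genes. Ldha, which did not pass the test against untreated cells, has the most matches of ACGTG. Bnip3, which passed it, has 2 of ACGTG and 3 of GCGTG. Pgk1 is chrX:106186850-106187099 on the plus strand. Slc16a3 is chr11:120948817-120949066 on the plus strand. Egln3 is chr12:54203875-54204124 on the minus strand. Ldha is chr7:46845554-46845803 on the plus strand.
Pgk1: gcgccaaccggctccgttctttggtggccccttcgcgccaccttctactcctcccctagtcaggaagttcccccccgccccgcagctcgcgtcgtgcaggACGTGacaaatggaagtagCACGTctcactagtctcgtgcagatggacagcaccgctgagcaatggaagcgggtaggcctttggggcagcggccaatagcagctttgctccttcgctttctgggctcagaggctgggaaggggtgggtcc
Slc16a3: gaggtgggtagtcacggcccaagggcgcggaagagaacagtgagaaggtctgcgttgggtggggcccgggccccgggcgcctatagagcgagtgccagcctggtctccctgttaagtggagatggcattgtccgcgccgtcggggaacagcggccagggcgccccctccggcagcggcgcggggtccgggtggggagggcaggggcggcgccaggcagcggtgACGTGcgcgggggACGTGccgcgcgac
Egln3: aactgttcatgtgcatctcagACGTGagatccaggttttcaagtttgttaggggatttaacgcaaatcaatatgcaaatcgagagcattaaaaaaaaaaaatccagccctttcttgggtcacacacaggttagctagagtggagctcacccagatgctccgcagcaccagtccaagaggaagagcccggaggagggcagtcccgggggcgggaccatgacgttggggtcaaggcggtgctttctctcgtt
Ldha: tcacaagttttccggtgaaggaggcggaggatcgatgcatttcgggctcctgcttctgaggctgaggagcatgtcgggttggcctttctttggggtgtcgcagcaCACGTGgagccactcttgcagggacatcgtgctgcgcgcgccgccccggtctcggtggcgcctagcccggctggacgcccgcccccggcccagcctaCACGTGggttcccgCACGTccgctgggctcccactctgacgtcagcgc
The Pgk1 and Slc16a3 windows each hold 2 matches and the Egln3 window holds 1. The Ldha window holds 5, of which 4 lie on 2 copies of CACGTG. Genes on both sides of the expression test held these cores, and Pkm, Eno2, Vegfa, Tpi1, Gpi1 and Aldoa, which passed it at 10 ng/ml, have neither core in this window.

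At 10 ng/ml, 18 of the 31 genes were higher than in untreated cells and none was lower, where 15.0% of the 17360 genes tested were higher and 14.2% lower (edgeR's quasi-likelihood test, Benjamini-Hochberg adjusted p below 0.05). At 30 ng/ml 19 were higher and none lower, where 12.6% of all genes were higher and 10.7% lower, and the 19 were the 18 of the lower dose with Hk1 added. The median log2 change of the 31 genes was 0.52 at 10 ng/ml and 0.46 at 30 ng/ml, beside 0.01 over all tested genes in each comparison. In the libraries labelled 100 ng/ml none of the 31 passed edgeR's test in either direction, where 0.812% of all genes were higher and 0.305% lower. There 13 had an unadjusted p below 0.05, all 13 with higher values, as had 2017 of all genes in either direction. DESeq2 called 9 of the 31 and 567 of all genes, and limma-voom 0 and 192, beside 194 of all genes with edgeR. The median change there was 0.15, beside 0.00 for all genes. The 3 comparisons share the untreated libraries.

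Added together, the 31 genes took 6342 and 6543 CPM in the untreated libraries, scaled by edgeR's TMM factors. They took 9847 and 9585 CPM at 10 ng/ml, 9577 and 9332 CPM at 30 ng/ml, and 6821 and 7526 CPM at 100 ng/ml. The libraries at 10 and 30 ng/ml were thus the highest, and those labelled 100 ng/ml lay between them and the untreated ones without overlap. These are shares of each library's RNA. They cannot tell apart how many cells have an active pathway and how much of each cell's RNA it takes.

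**Figure D1:**
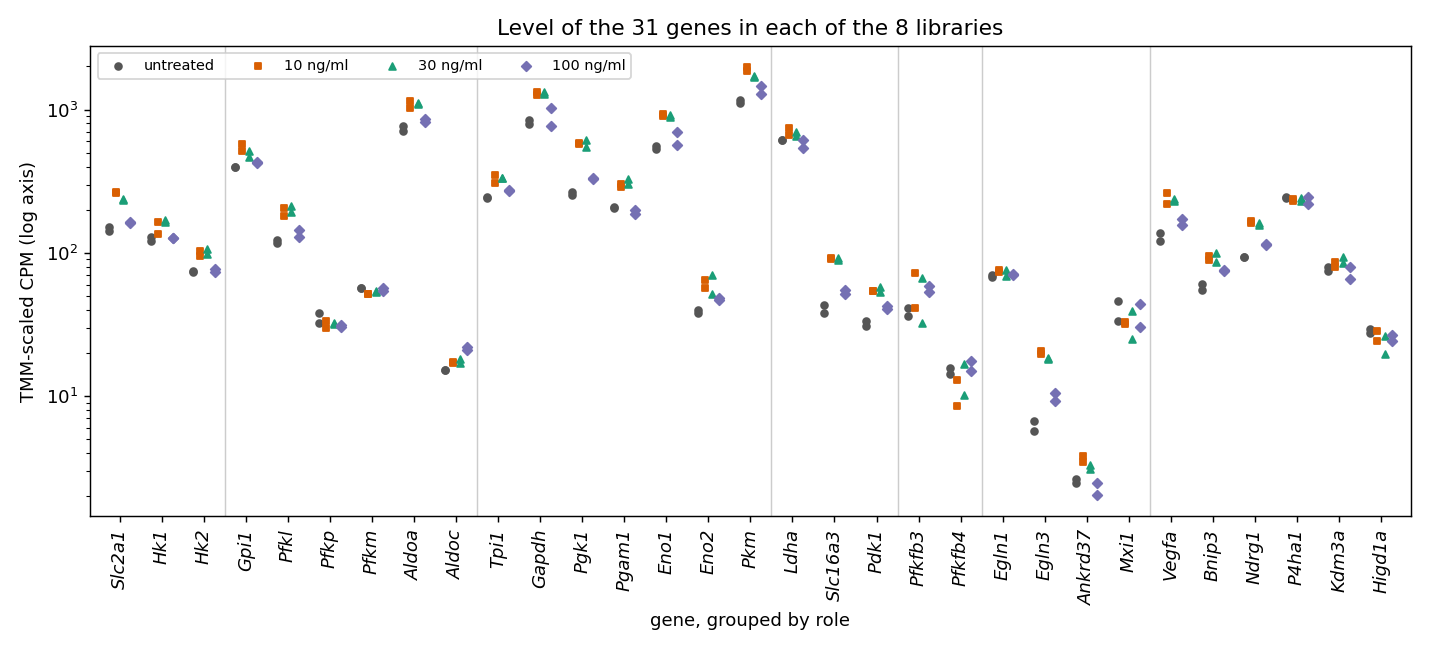
Level of each of the 31 genes (x axis, grouped by role) in TMM-scaled CPM on a log axis, with 1 point for each of the 8 libraries and a colour and shape for each group. For the genes that passed the test the points at 10 and 30 ng/ml sit together above the untreated points, as for Egln3, while Pfkfb3, Pfkfb4 and Mxi1 show libraries of 1 group far apart.

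All 3 genes of glucose uptake and trapping were higher at 30 ng/ml, and 2 of them at 10 ng/ml. Of all genes tested 12.6% and 15.0% were higher at these doses. Slc2a1, the glucose transporter GLUT1 (chr4:119108711-119137983, plus strand, GRCm38), measured 152 and 142 CPM in untreated cells. It measured 263 and 265 CPM at 10 ng/ml, 233 and 238 CPM at 30 ng/ml, and 162 and 165 CPM at 100 ng/ml. Both middle doses stood well above the untreated libraries, and the libraries labelled 100 ng/ml only just above them. The log2 change was 0.84 ± 0.06 (SE, n = 2 libraries a group) at 10 ng/ml, with an edgeR adjusted p of 3.94e-05, and 0.68 ± 0.06 at 30 ng/ml, with an adjusted p of 0.000163. Of the hexokinases, which phosphorylate glucose and so keep it in the cell, Hk2 rose by 0.41 ± 0.07 at 10 ng/ml (edgeR adjusted p 0.00473). Its levels went from 73.9 and 75.1 CPM to 94.9 and 102 CPM, with no overlap. The other hexokinase, Hk1, measured 130 and 121 CPM untreated, 135 and 165 CPM at 10 ng/ml, and 165 and 169 CPM at 30 ng/ml. Its libraries at 10 ng/ml were far apart, and Hk1 passed the edgeR test only at 30 ng/ml (0.41 ± 0.10, adjusted p 0.0193, against 0.26 ± 0.10, adjusted p 0.090, at 10 ng/ml). Without any 1 of the untreated or 30 ng/ml libraries Hk1 lost its call at 30 ng/ml (adjusted p 0.0580 to 0.118), and without 10 ng/ml replicate 1 it gained one at 10 ng/ml (adjusted p 0.0173).

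In the steps before the sugar is split, Pfkl, Aldoa and Gpi1 rose, and the other isoforms of phosphofructokinase and aldolase did not pass the test against untreated cells. Pfkl, the liver-type phosphofructokinase of the committed step, went from 117 and 123 CPM to 204 and 180 CPM at 10 ng/ml, 212 and 192 CPM at 30 ng/ml, and 130 and 144 CPM at 100 ng/ml. All 4 libraries at the middle doses lay above the rest, and the change at 10 ng/ml was 0.68 ± 0.09 on the log2 scale (edgeR adjusted p 0.00104). The muscle isoform Pfkm measured 57.0 and 57.2 CPM untreated and 51.7 and 51.8 CPM at 10 ng/ml, a log2 change of -0.14 with a 95% interval from -0.30 to 0.02 (edgeR adjusted p 0.164). The platelet isoform Pfkp had a log2 change of -0.15 (95% interval -0.40 to 0.10), and its groups overlapped.

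Aldoa, the aldolase that splits the sugar (chr7:126795234-126800751, minus strand), measured 711 and 769 CPM in untreated cells. At 10 ng/ml it measured 1145 and 1032 CPM, at 30 ng/ml 1100 and 1107 CPM, and at 100 ng/ml 815 and 854 CPM. Every TWEAK library was above both untreated ones, with the middle doses highest, and the log2 change was 0.56 ± 0.06 at 10 ng/ml (edgeR adjusted p 0.000463). Gpi1, the isomerase between hexokinase and phosphofructokinase, had 399 and 396 CPM untreated, 577 and 516 CPM at 10 ng/ml, 513 and 469 CPM at 30 ng/ml, and 431 and 427 CPM at 100 ng/ml. Its 4 groups did not overlap, in the order untreated, 100, 30 and 10 ng/ml. Gpi1 rose by 0.46 ± 0.07 at 10 ng/ml (edgeR adjusted p 0.00193) and by 0.30 ± 0.07 at 30 ng/ml (adjusted p 0.0170), and the call at 30 ng/ml was lost without either untreated library or 30 ng/ml replicate 1 (adjusted p up to 0.103). Aldoc, a minor aldolase, was highest in the libraries labelled 100 ng/ml, with 15.3 CPM in both untreated libraries, 17.2 and 17.1 CPM at 10 ng/ml, 18.3 and 17.1 CPM at 30 ng/ml, and 21.1 and 22 CPM at 100 ng/ml. Its log2 change was 0.50 ± 0.10 at 100 ng/ml (edgeR adjusted p 0.0658) and 0.17 ± 0.10 at 10 ng/ml (adjusted p 0.234).

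All 7 genes of the steps after the split rose at 10 and at 30 ng/ml, where 15.0% and 12.6% of all genes tested were higher. Their median log2 change was 0.66 and 0.65. Pgk1 (chrX:106187100-106203699, plus strand), the kinase that makes the first ATP of the pathway, moved most. It measured 253 and 266 CPM in untreated cells, 574 and 584 CPM at 10 ng/ml, 617 and 548 CPM at 30 ng/ml, and 332 and 328 CPM at 100 ng/ml. Its untreated, 100 ng/ml and middle-dose libraries formed separate levels. Pgk1 was 2.23-fold higher at 10 ng/ml (95% interval 2.00 to 2.49, edgeR adjusted p 1.56e-05) and 2.25-fold higher at 30 ng/ml (adjusted p 2.57e-05).

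Gapdh, the dehydrogenase often used as a reference gene, measured 790 and 849 CPM untreated, 1257 and 1325 CPM at 10 ng/ml, 1336 and 1292 CPM at 30 ng/ml, and 763 and 1024 CPM at 100 ng/ml. It rose by 0.66 ± 0.12 at 10 ng/ml (edgeR adjusted p 0.0047), while the libraries labelled 100 ng/ml were split to both sides of the untreated ones. Tpi1, which interconverts the products of the split, had 240 and 245 CPM untreated, 347 and 308 CPM at 10 ng/ml, 335 and 332 CPM at 30 ng/ml, and 275 and 271 CPM at 100 ng/ml. It changed by 0.44 ± 0.07 at 10 ng/ml (edgeR adjusted p 0.00212), and the untreated libraries were the lowest. The mutase gene Pgam1 had 210 and 207 CPM untreated, 304 and 288 CPM at 10 ng/ml, 330 and 304 CPM at 30 ng/ml, and 188 and 200 CPM at 100 ng/ml. Here the libraries labelled 100 ng/ml were the lowest of the 8, though with near-identical copies added replicate 2 (266 CPM) passed untreated replicate 2 (261 CPM), and the change at 10 ng/ml was 0.50 ± 0.07 (edgeR adjusted p 0.0010).

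Eno1, the widely expressed enolase, measured 527 and 556 CPM untreated, 935 and 901 CPM at 10 ng/ml, 892 and 915 CPM at 30 ng/ml, and 567 and 699 CPM at 100 ng/ml. The middle doses lay apart from the rest, with a log2 change of 0.76 ± 0.09 at 10 ng/ml (edgeR adjusted p 0.000556). Eno2, known as the neuronal enolase, rose by 0.65 ± 0.14 at 10 ng/ml from 39.7 and 37.9 CPM to 56.8 and 65.2 CPM (edgeR adjusted p 0.00946). It lost that call without untreated replicate 2 (adjusted p 0.0597) or 10 ng/ml replicate 2 (adjusted p 0.0606), and the call at 30 ng/ml without untreated replicate 1 (adjusted p 0.0560) or 2 (adjusted p 0.0763). Pkm, pyruvate kinase (chr9:59656368-59679375, plus strand), was the most counted of the 31 genes, with 1108 and 1158 CPM untreated, 1972 and 1855 CPM at 10 ng/ml, 1705 and 1675 CPM at 30 ng/ml, and 1289 and 1462 CPM at 100 ng/ml. Its libraries ordered the groups without overlap, from untreated through 100 and 30 to 10 ng/ml. The Pkm change was 0.76 ± 0.07 at 10 ng/ml (edgeR adjusted p 0.000101) and 0.58 ± 0.07 at 30 ng/ml (adjusted p 0.000558). Gene counts do not separate its M1 and M2 splice forms.

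**Figure D2:**
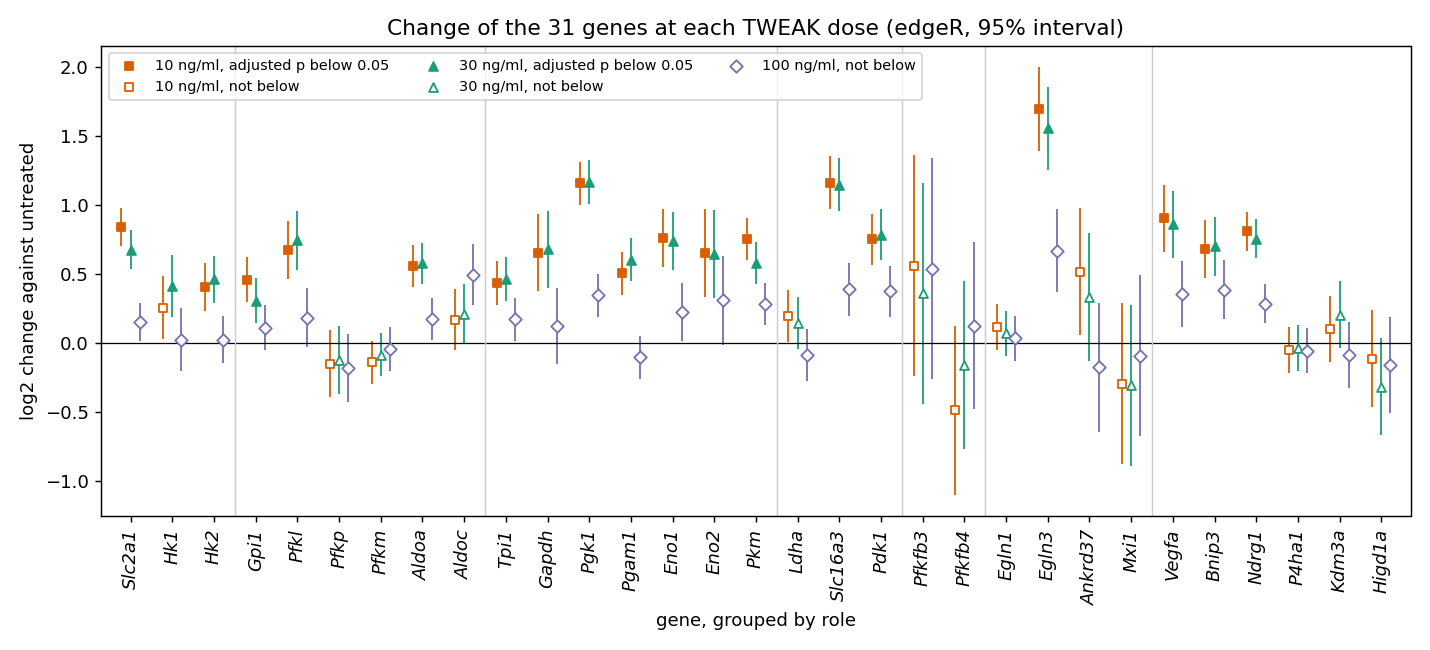
Log2 change against untreated cells (y axis) of the 31 genes (x axis, grouped by role) at 10, 30 and 100 ng/ml, with 95% intervals from the edgeR fit and filled symbols for an adjusted p below 0.05. The symbols at 10 and 30 ng/ml lie close together, from 1.70 and 1.56 for Egln3 downward, and for the genes called at those doses the symbols at 100 ng/ml lie nearer 0. None at 100 ng/ml is filled, and Aldoc reaches 0.50 there.

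Of the genes that set the fate of pyruvate, the lactate exporter and the kinase of pyruvate dehydrogenase rose, while lactate dehydrogenase did not pass the test. Slc16a3, the exporter MCT4 (chr11:120948480-120960868, plus strand), measured 38.0 and 43.6 CPM untreated, 91.0 and 91.7 CPM at 10 ng/ml, 91.8 and 89.1 CPM at 30 ng/ml, and 52.0 and 54.9 CPM at 100 ng/ml. The middle doses coincided, and the libraries labelled 100 ng/ml lay between them and the untreated ones. Slc16a3 was 2.24-fold higher at 10 ng/ml (95% interval 1.96 to 2.56, edgeR adjusted p 3.96e-05). Pdk1, which inactivates pyruvate dehydrogenase by phosphorylation, measured 31 and 33.5 CPM untreated, 54.2 and 54.4 CPM at 10 ng/ml, 57.4 and 53.7 CPM at 30 ng/ml, and 42.6 and 40.9 CPM at 100 ng/ml. It had the same order of groups as Slc16a3 and changed by 0.75 ± 0.08 at 10 ng/ml (edgeR adjusted p 0.000279).

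Ldha, the subunit that favours making lactate, measured 609 and 616 CPM untreated, 742 and 660 CPM at 10 ng/ml, 701 and 652 CPM at 30 ng/ml, and 541 and 613 CPM at 100 ng/ml. The middle doses lay above the untreated libraries without overlap, and the spread between replicates was of similar size to the difference. Its log2 change at 10 ng/ml was 0.19 with a 95% interval from 0.01 to 0.38 (edgeR adjusted p 0.116). The enzymes Pfkfb3 and Pfkfb4, which set the level of the sugar phosphate that activates phosphofructokinase, did not pass the test at any dose. Pfkfb3 had 41.4 and 36.0 CPM untreated, 41.4 and 72.8 CPM at 10 ng/ml, 66.8 and 32.4 CPM at 30 ng/ml, and 53.3 and 58.9 CPM at 100 ng/ml. Its libraries at each middle dose were about as far apart as any 2 in the series, and the 95% interval at 10 ng/ml ran from -0.24 to 1.36. For Pfkfb4 that interval ran from -1.10 to 0.13.

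Among the oxygen sensors and feedback genes, 1 of 4 rose at 10 and at 30 ng/ml, where 15.0% and 12.6% of all genes tested were higher. Egln3, a prolyl hydroxylase that marks HIF alpha subunits for destruction and is itself a HIF target, had the largest log2 change of the 31 genes (chr12:54178981-54203860, minus strand). It measured 5.75 and 6.72 CPM untreated, 19.8 and 20.7 CPM at 10 ng/ml, 18.2 and 18.5 CPM at 30 ng/ml, and 9.25 and 10.6 CPM at 100 ng/ml. The 4 groups did not overlap, and the order ran from untreated through 100 and 30 to 10 ng/ml. Egln3 was 3.24-fold higher at 10 ng/ml (95% interval 2.63 to 4.0, edgeR adjusted p 5.38e-05) and 2.94-fold higher at 30 ng/ml (adjusted p 0.000116). Egln1, the main prolyl hydroxylase of most cells, had a log2 change of 0.12 at 10 ng/ml with a 95% interval from -0.05 to 0.28 (edgeR adjusted p 0.266). Ankrd37, a small ankyrin-repeat HIF target, had a log2 change of 0.52 ± 0.20 from a level of 2.48 and 2.63 CPM (edgeR adjusted p 0.092). Mxi1, an antagonist of MYC that HIFs induce, had a log2 change of -0.30 ± 0.25, and its untreated libraries alone ran from 33.6 to 46.0 CPM.

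Of the other hypoxia targets 3 of 6 rose at 10 and at 30 ng/ml, where 15.0% and 12.6% of all genes tested were higher. Vegfa, the angiogenic growth factor (chr17:46016993-46032369, minus strand), measured 137 and 121 CPM untreated, 221 and 262 CPM at 10 ng/ml, 230 and 239 CPM at 30 ng/ml, and 174 and 156 CPM at 100 ng/ml. It rose by 0.90 ± 0.10 at 10 ng/ml (edgeR adjusted p 0.000437), and the libraries labelled 100 ng/ml again lay in between. Ndrg1, a stress-response gene, measured 94.3 and 94.4 CPM untreated, 163 and 168 CPM at 10 ng/ml, 163 and 156 CPM at 30 ng/ml, and 116 and 114 CPM at 100 ng/ml. It showed the same order, with a change of 0.81 ± 0.06 (edgeR adjusted p 5.18e-05). Bnip3, a mitochondrial protein that promotes removal of mitochondria, measured 54.7 and 60.7 CPM untreated, 89.8 and 95.1 CPM at 10 ng/ml, 101 and 87.0 CPM at 30 ng/ml, and 75.8 and 75.0 CPM at 100 ng/ml. The Bnip3 groups at 10 and 30 ng/ml overlapped each other and no other group, and the change at 10 ng/ml was 0.68 ± 0.09 (edgeR adjusted p 0.00102).

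The remaining hypoxia targets did not pass the test at 10 or 30 ng/ml. P4ha1, a prolyl hydroxylase that modifies collagen, had a log2 change of -0.05 at 10 ng/ml with a narrow 95% interval from -0.21 to 0.12. The histone demethylase Kdm3a had a log2 change of 0.10 (95% interval -0.14 to 0.34), and Higd1a, a mitochondrial survival factor, one of -0.11 (95% interval -0.46 to 0.24). Without 30 ng/ml replicate 2, Higd1a was called lower at 30 ng/ml (-0.55, edgeR adjusted p 0.0409). Among these HIF targets Egln3, Vegfa, Ndrg1 and Bnip3 passed the test, and Egln1, Ankrd37, Mxi1, P4ha1, Kdm3a and Higd1a did not.

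Most of the 31 genes, with Aldoc an exception, did not follow the order of the labelled doses. Between 30 and 10 ng/ml edgeR called 0 of the 31 genes, where 0% of all genes were higher and 0% lower, and DESeq2 and limma-voom also called 0 of the 31. An unadjusted p below 0.05 was found for 2 of them, Slc2a1 (-0.17 ± 0.06) and Pkm (-0.18 ± 0.07), both lower at 30 ng/ml. Over all genes the unadjusted p was below 0.05 for 1208, and DESeq2 called 131 and limma-voom 0. Between 100 and 10 ng/ml, 18 of the 31 were lower and 1 higher at 100 ng/ml, where 11.2% of all genes were lower and 10.7% higher. Without 100 ng/ml replicate 2 the total was 12, all lower, and 10 of the 19 (Hk2, Gpi1, Pfkl, Aldoc, Tpi1, Gapdh, Ldha, Pdk1, Vegfa and Ankrd37) lost the call without at least 1 library (adjusted p 0.0502 to 0.234). Between 100 and 30 ng/ml, 16 were lower and none higher, where 8.04% of all genes were lower and 7.15% higher. The comparisons among doses share libraries with those against untreated cells.

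Between 100 and 10 ng/ml, Egln3, Pgk1 and Slc16a3 had the largest log2 differences of the 31 genes. Egln3 fell by 1.03 ± 0.13 on the log2 scale (edgeR adjusted p 0.00099), Pgk1 fell by 0.81 ± 0.07 (adjusted p 0.000153), and Slc16a3 fell by 0.77 ± 0.08 (adjusted p 0.000509). Slc2a1 fell by 0.69 ± 0.06 (edgeR adjusted p 0.000185) and Pgam1 fell by 0.61 ± 0.07 (adjusted p 0.000589). Ldha was also lower at 100 than at 10 ng/ml (-0.28 ± 0.08, edgeR adjusted p 0.0431), and its adjusted p was 0.234 without 10 ng/ml replicate 1. The 1 higher gene was Aldoc (0.33 ± 0.10, edgeR adjusted p 0.0436), and Ankrd37 was lower (-0.70 ± 0.20, adjusted p 0.0443). With DESeq2 neither Aldoc (adjusted p 0.109) nor Ankrd37 (adjusted p 0.154) was called. Against untreated cells, the libraries labelled 100 ng/ml had their smallest edgeR adjusted p among the 31 genes for Aldoc (0.0658), Egln3 (0.67 ± 0.13, adjusted p 0.0681) and Pgk1 (0.35 ± 0.07, adjusted p 0.0681). Pgk1 passed without 30 ng/ml replicate 1 (adjusted p 0.0354) or replicate 2 (adjusted p 0.0330). The submitters' library numbers run in the order untreated, 100, 30 and 10 ng/ml. Whether the libraries labelled 100 ng/ml, or those of any other group, received the dose on their label was not tested.

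Levels of different genes were compared per kilobase of exon, with lengths from GENCODE M21. Each length joins the exons of all annotated transcripts of a gene, such as 13401 bases for Pfkp and 3340 for Pfkm. It can exceed the transcript expressed here, so the order of genes and the size of isoform shares depend on the annotation. In untreated cells Aldoa stood highest, at 254 CPM per kb, followed by Pkm at 227, Gapdh at 198 and Ldha at 185 CPM per kb. Lowest were Ankrd37 at 1.66, Egln3 at 2.34 and Pfkp at 2.62 CPM per kb. At 10 ng/ml Pkm reached 383 and Aldoa 374 CPM per kb, while Ldha reached 212 and Pgk1, at 258 CPM per kb, stood above it. This order leaves out near-identical copies: with them added Gapdh stood at 249 CPM per kb untreated and 397 CPM per kb at 10 ng/ml, above Pkm in both groups and above Aldoa at 10 ng/ml. Sums with copies may count a read more than once, so this rank is uncertain.

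Shares within enzyme families, on the same per-kilobase scale, were higher in all 4 libraries at the middle doses for Pfkl, Eno1, Pdk1, Pdk4, Ldha and Aldoa. No test was run on shares. The shift was small for Ldha beside Ldhb, from a mean of 88.9% untreated to 91.3% at 10 ng/ml. For Aldoa beside Aldoc it was from 98.2% to 98.6%. Pfkl held 46.9% and 48.6% of phosphofructokinase in untreated cells, 63.0% and 60.3% at 10 ng/ml, 63.3% and 60.6% at 30 ng/ml, and 51.3% and 52.6% at 100 ng/ml. Pfkm went the other way, from a mean of 45.3% to 33.3% at 10 ng/ml. Among the pyruvate dehydrogenase kinases Pdk1 went from 13.8% and 15.5% to 26.1% and 27.1% at 10 ng/ml, and Pdk4 from 12.7% and 11.9% to 24.4% and 22.3%. Pdk2 and Pdk3 held the rest. The enolase share of Eno1 went from a mean of 80.2% to 89.5%, as that of the muscle isoform Eno3 went from 13.2% to 3.67%. The share of Eno2 overlapped between groups, at a mean of 6.57% untreated and 6.81% at 10 ng/ml. Hk1 and Hk2 had nearly equal shares, with Hk1 at 54.1% in untreated cells and 51.4% at 10 ng/ml.

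**Figure D3:**
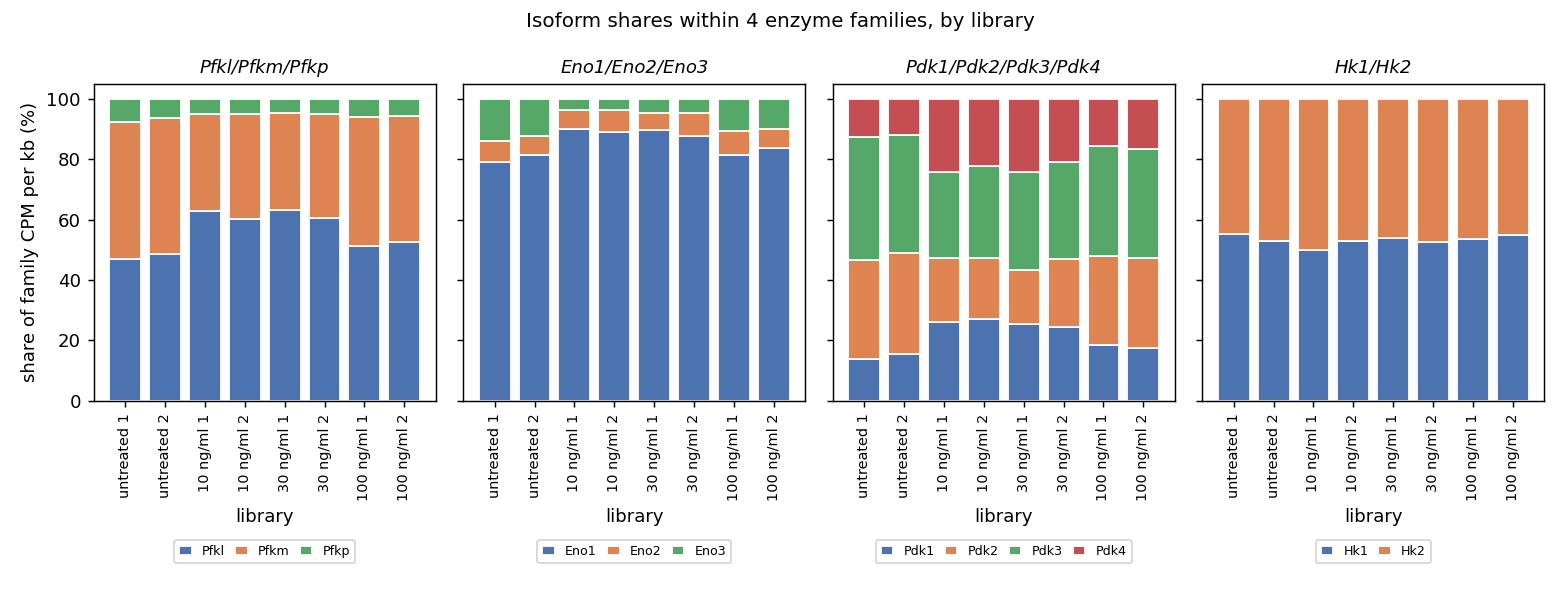
Share of each isoform (y axis, percent of the family's CPM per kb of exon) in each of the 8 libraries (x axis) for phosphofructokinase, enolase, pyruvate dehydrogenase kinase and hexokinase. Pfkl, Eno1, Pdk1 and Pdk4 take larger shares in the 4 libraries at 10 and 30 ng/ml. The Hk1 share of hexokinase runs from 49.8% in 10 ng/ml replicate 1 to 55.2% in untreated replicate 1.

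Several glycolytic genes have near-identical copies elsewhere in the genome, mostly processed pseudogenes, which can take reads from the parent. A copy with at least 95% identity over at least 200 bases was in the table for 10 of the 31 genes. The counts of the copies came to 23.4 to 29.9% of the parent's for Gapdh, 25.9 to 32.9% for Pgam1, 14.4 to 17.2% for Pgk1 and 11.9 to 20.7% for Eno1, and to at most 6.82% for the others. With the copies added, Pgk1 stood at 292 and 304 CPM untreated and 672 and 677 CPM at 10 ng/ml, and the same 18 and 19 genes were called at 10 and 30 ng/ml. At 100 ng/ml the addition brought Pgk1 to an edgeR adjusted p of 0.0497 (log2 change 0.36), and it was then the only call. The Pgk1 copies Gm5537 and Pgk1-rs7, both matching at 100% identity, held 966 and 987 counts in untreated replicate 1. How reads matching several places were counted is not given in the sources used here. Sums with copies may therefore count a read more than once. Eno1b, a copy of Eno1, held 102 counts in 100 ng/ml replicate 1 and 2158 in replicate 2. An exon of 14 of the 31 genes overlaps an exon of another gene, and whether the counting used strand is not given in the sources used here.

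**Figure D4:**
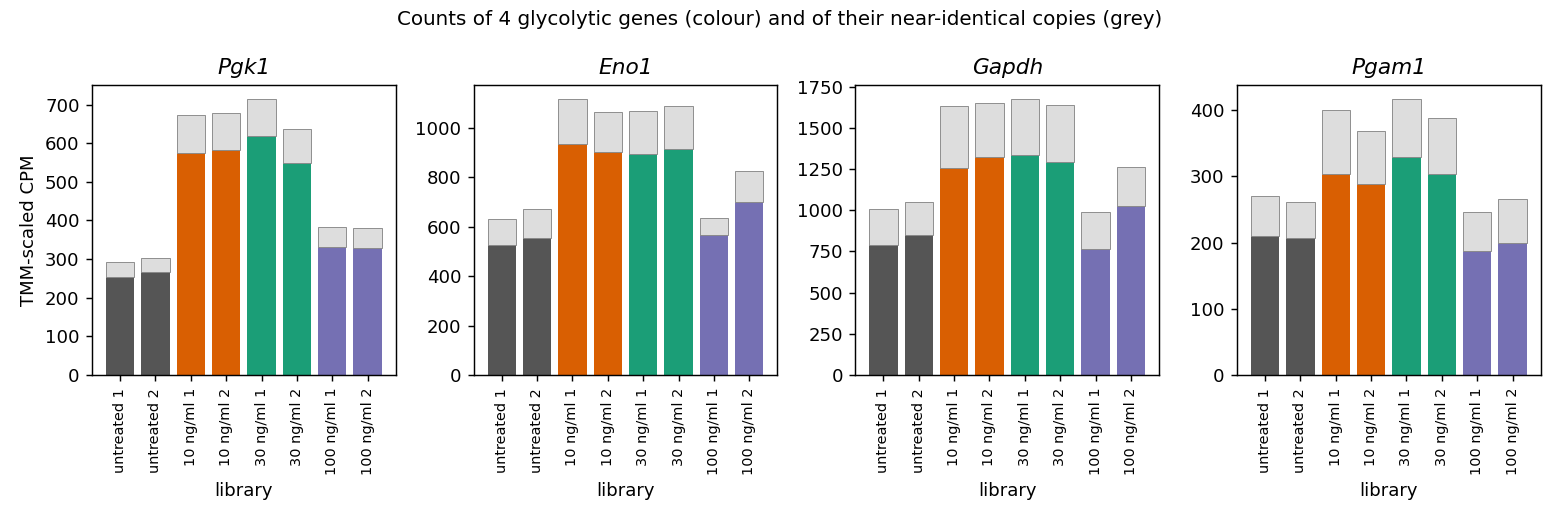
TMM-scaled CPM (y axis) of Pgk1, Eno1, Gapdh and Pgam1 in each of the 8 libraries (x axis), in colour by group, with the summed CPM of their near-identical copies stacked in grey. The grey part is 11.9 to 20.7% of the coloured part for Eno1, lowest in 100 ng/ml replicate 1, and 23.4 to 29.9% for Gapdh, and with it added the bars at 10 and 30 ng/ml are still the highest.

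Genes under the 122 other symbols listed for the pathway and its branches, which include older names of Elob and Eloc, were called in both directions. Of the 110 tested, 32 rose and 26 fell at 10 ng/ml, 29 rose and 20 fell at 30 ng/ml, and 2 rose and none fell at 100 ng/ml. The shares over all genes tested were 15.0% higher and 14.2% lower at 10 ng/ml, and 12.6% and 10.7% at 30 ng/ml. They were 0.812% and 0.305% at 100 ng/ml. Among 25 other isoforms and sugar or lactate transporters 4 rose and 9 fell at 10 ng/ml, with a median log2 change of -0.33. Slc2a6, a glucose transporter family member of lysosomes, rose from 11.1 and 12.4 CPM to 66.0 and 61.6 CPM, which is 5.42-fold (edgeR adjusted p 3.91e-06). It was 1 of the 2 genes also called at 100 ng/ml (0.91 ± 0.10, edgeR adjusted p 0.00505). The muscle enolase Eno3 fell by 1.25 ± 0.11 at 10 ng/ml (edgeR adjusted p 9.72e-05), the sugar transporter Slc2a8 fell by 0.86 ± 0.10 (adjusted p 0.000435), and Pgm2l1, which makes a glucose bisphosphate, fell by 0.68 ± 0.13 (adjusted p 0.00542).

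The genes for entry of pyruvate into mitochondria and its use there fell more often than they rose. At 10 ng/ml 7 of 14 were lower and 1 higher, where 15.0% of all genes were higher and 14.2% lower. Pdha1, a catalytic subunit of pyruvate dehydrogenase, fell by 0.47 ± 0.06 (edgeR adjusted p 0.000617). Its inhibitory kinases were split, since Pdk2 fell by 0.79 ± 0.11 (edgeR adjusted p 0.00134) and Pdk3 fell by 0.56 ± 0.09 (adjusted p 0.00203) while Pdk4 rose by 0.81 ± 0.13 (adjusted p 0.00225). In the pentose phosphate pathway, which branches from the first product of hexokinase and yields NADPH and ribose, 3 of 11 rose and 1 fell. Pgd rose from 302 and 291 CPM to 616 and 601 CPM, a log2 change of 1.04 ± 0.06 (edgeR adjusted p 1.67e-05), and was the other gene called at 100 ng/ml (0.37 ± 0.06, adjusted p 0.0370). Taldo1 rose by 1.03 ± 0.08 and G6pdx by 0.74 ± 0.08, while H6pd, the form of the endoplasmic reticulum, fell by 0.48 ± 0.05, each with an edgeR adjusted p of at most 0.000411. The serine and one-carbon branch had 7 of 8 genes higher and none lower, with a median of 0.62. Mthfd1l rose by 1.36 ± 0.10 (edgeR adjusted p 4.82e-05), Shmt2 by 1.24 ± 0.09 (adjusted p 4.72e-05), Mthfd2 by 0.75 ± 0.10 (adjusted p 0.000996) and Phgdh by 0.50 ± 0.07 (adjusted p 0.00167). Neither of the 2 tested gluconeogenic genes, Pck2 (0.34 ± 0.12) and G6pc3 (0.34 ± 0.18), passed the edgeR test at 10 ng/ml.

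Of the 15 measured HIF subunits and oxygen-sensing genes 2 rose and 1 fell at 10 ng/ml. Neither count exceeds the share over all genes, of which 15.0% were higher and 14.2% lower. Hif1a, the oxygen-regulated subunit whose protein level is set mainly by degradation, measured 409 and 404 CPM untreated, 513 and 561 CPM at 10 ng/ml, 548 and 521 CPM at 30 ng/ml, and 480 and 475 CPM at 100 ng/ml. All TWEAK libraries lay above the untreated ones, and the change was 0.40 ± 0.06 at 10 ng/ml (edgeR adjusted p 0.0017). Its partner Arnt fell by 0.39 ± 0.07 (edgeR adjusted p 0.00308), and Eloc, a subunit of the VHL ubiquitin ligase, rose by 0.68 ± 0.09 (adjusted p 0.00114). The second alpha subunit Epas1 had a log2 change of 0.24 ± 0.09 (edgeR adjusted p 0.0987), and Vhl, whose product recognises the hydroxylated alpha subunits, one of -0.14 ± 0.09 (adjusted p 0.270). Ep300, a coactivator of HIFs, had a log2 change of -0.22 ± 0.08 (edgeR adjusted p 0.0763).

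Of 35 other genes known to be induced by hypoxia, 15 rose and 8 fell at 10 ng/ml, with a median of 0.30. Of all genes tested 15.0% were higher and 14.2% lower there. Vldlr, a lipoprotein receptor, rose by 1.03 ± 0.07 (edgeR adjusted p 2.26e-05), the cytokine Mif by 0.94 ± 0.08 (adjusted p 7.86e-05) and the repressor Bhlhe40 by 0.73 ± 0.06 (adjusted p 0.000110). Tmem45a fell by 1.02 ± 0.08 (edgeR adjusted p 7.72e-05). The 8 lower genes also included Adm, Plod1 and Plod2. At 100 ng/ml none of the 35 was called by edgeR.

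**Figure D5:**
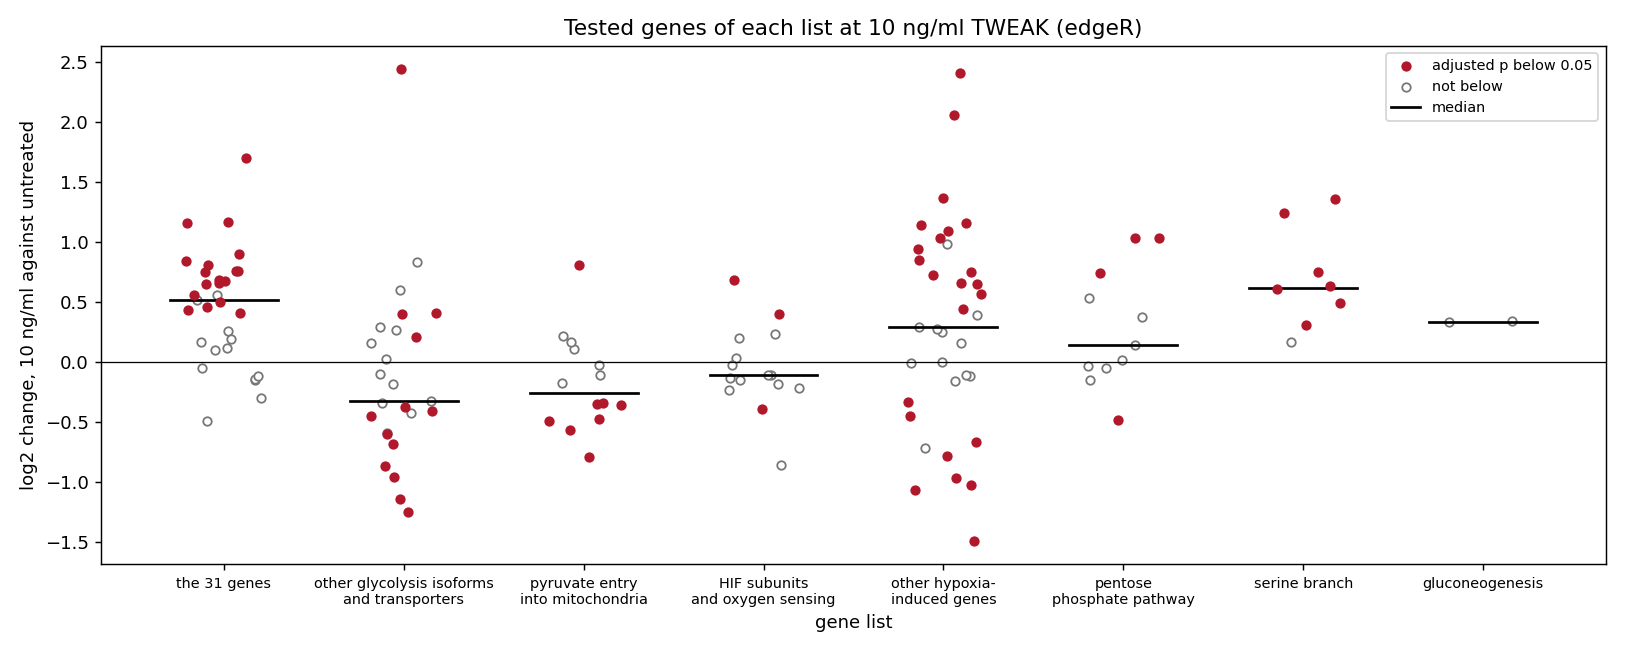
Log2 change at 10 ng/ml against untreated cells (y axis) of every tested gene of the 31 and of 7 pathway lists (x axis), filled where the edgeR adjusted p is below 0.05, with a line at each median. The 31 genes have filled points only above 0, as does the serine branch, the gluconeogenic genes have none, and the other 5 lists, such as the other isoforms with a median of -0.33, have them on both sides.

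Markers of proliferation and of fibroblast identity moved in the same libraries. Where 15.0% of all genes rose at 10 ng/ml and 12.6% at 30 ng/ml, 23 and 22 of 25 cell cycle genes rose. None of these 25 genes was called at 100 ng/ml. Their summed level was 409 and 424 CPM untreated, 815 and 777 CPM at 10 ng/ml, 769 and 707 CPM at 30 ng/ml, and 477 and 512 CPM at 100 ng/ml. This is the same order of groups as for the 31 genes, and the part of proliferation in their change was not tested. The 8 fibroblast markers summed to 20799 and 20545 CPM untreated and 10810 and 10712 CPM at 10 ng/ml. There Col1a1, Col1a2, Col3a1, Thy1 and Lum fell, and Vim, Dcn and Pdgfra rose. The receptor gene of TWEAK, Tnfrsf12a, rose by 0.77 ± 0.15 at 10 ng/ml (edgeR adjusted p 0.00536), and the TWEAK gene Tnfsf12 fell by 0.44 ± 0.11 (adjusted p 0.0171), a call lost without either untreated library or 10 ng/ml replicate 2 (adjusted p up to 0.0901).

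Most markers of other cell types were low, but several moved with the groups. At 10 ng/ml 15.0% of all genes tested were higher and 14.2% lower. The 10 macrophage markers summed to 29.7 to 33.8 CPM untreated, 62.6 to 72.1 CPM at 10 ng/ml, 54.3 to 67.0 CPM at 30 ng/ml and 47.0 to 50.7 CPM at 100 ng/ml. At 10 ng/ml 3 of the 9 tested rose, Cd68, Cd14 and Mrc1, and 0 fell. Mrc1 was near the floor, at 0.0599 and 0.0803 CPM untreated and 0.454 and 0.304 CPM at 10 ng/ml. The leukocyte marker Ptprc was low throughout, at 0.0599 and 0 CPM untreated and 0 in both libraries at 10 ng/ml. It measured 0.110 and 0.472 CPM at 30 ng/ml, and 0 and 0.65 CPM at 100 ng/ml. The 9 epithelial markers summed to at most 2.22 CPM with Epcam and Nkx2-1 at 0 everywhere, and the 8 endothelial markers to at most 7.81 CPM with Tie1 and Emcn at 0. Among the latter Cdh5 rose at 10 ng/ml, from 0.180 and 0.120 CPM to 4.27 and 3.81 CPM, and Tek fell. The 6 mesothelial markers summed to 17.1 to 17.4 CPM untreated and 5.54 to 7.56 CPM at 10 ng/ml. The 8 smooth muscle and pericyte markers summed to 128 to 144 CPM untreated, 168 to 187 CPM at 10 ng/ml, 168 to 175 CPM at 30 ng/ml and 141 to 146 CPM at 100 ng/ml. At 10 ng/ml 3 of them rose and 3 fell: Des went from 35.5 and 27.6 CPM to 119 and 111 CPM, Cspg4 and Rgs5 also rose, and Myh11, Cnn1 and Kcnj8 fell. The part of these other cell types' markers in the results was not tested.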

How the data were processed

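Whole-number read counts per gene in 8 libraries were analysed as the authors deposited them. Per the submitters' processing notes the build was mm10 and the tools named were STAR and StringTie, with no version, annotation or strand setting given in the sources used here. The 3225 rows without a gene symbol (0.168 to 0.178% of counts) were left out of tests and library sizes.

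All 8 libraries entered 1 fit with group means in edgeR 4.0.16 (R 4.3.3), with its default low-count filter, TMM scaling and quasi-likelihood F test on 4 residual degrees of freedom. This left 17360 genes, and p-values were adjusted by Benjamini-Hochberg over all of them at 0.05. The step was tested on simulated data. CPM values use the TMM factors. Alternatives were DESeq2 1.42.0, limma-voom (limma 3.58.1), other scalings and filters, only the groups compared, a replicate block, and each library left out. After the data were seen, fits without both libraries labelled 100 ng/ml and with near-identical copies added (BLAST 2.17.0) were included. Gene positions, exon lengths and overlaps came by symbol from GENCODE M21, which may differ from the authors' annotation, and promoters from RefSeq.

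The members and lists were chosen with earlier results of these data known. All 31 members are named. Library values are given for the 16 with the smallest p at 10 ng/ml, and for others where their role needs it, and from each pathway list up to 4 genes with the smallest p at 10 ng/ml are named.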

Additional observations from a re-analysis of the deposited data

How the results depend on the processing

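No result changed direction past the threshold under any alternative run. The number of the 31 genes called stayed at 18 at 10 ng/ml under DESeq2, limma-voom, 2 other scalings, 2 other filters, the fit of only the groups compared, the fit without both libraries labelled 100 ng/ml and the fit with copies added, and at 19 at 30 ng/ml under the same settings. Leaving out 1 library gave 17 to 19 calls at 10 ng/ml, 16 to 19 at 30 ng/ml, 12 to 18 between 100 and 10 ng/ml, 11 to 16 between 100 and 30 ng/ml, and 0 between 30 and 10 ng/ml. At 30 ng/ml Hk1, Gpi1 and Eno2 lost their calls without at least 1 library (adjusted p 0.0560 to 0.118).

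At 100 ng/ml against untreated cells the calls depended on the tool. DESeq2 called 9 of the 31 genes (Pkm, Slc16a3, Egln3, Aldoc, Pdk1, Pgk1, Vegfa, Bnip3 and Ndrg1) and 567 of all genes, against 194 with edgeR, the added copies gave 1, and leaving out 1 library gave 0 to 1. Of the other pathway genes, 2 in the edgeR fit, DESeq2 called 5, and no low-count filter, only the groups compared and the replicate block gave 1 each. Leaving out 1 library gave 1 to 2 there, 43 to 55 at 10 ng/ml and 38 to 49 at 30 ng/ml. The cause was not tested. Replicate numbers did not pair the samples: the correlations of same-numbered deviations ran from -0.0463 to 0.0282. With the replicate block the calls among the 31 genes were 18 at 10 ng/ml, 19 at 30 ng/ml, 0 at 100 ng/ml, 16 between 100 and 10 ng/ml and 15 between 100 and 30 ng/ml. With 2 libraries a group, a difference as small as that of Ldha at 10 ng/ml did not pass the test.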
